A study of Mus musculus with 17 samples.

Results

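The 7 genes described here write, copy or remove methyl groups on DNA cytosines: Dnmt1, Uhrf1, Dnmt3a, Dnmt3b, Tet1, Tet2 and Tet3. They were chosen by name and read from 13 of the array's 41174 probes. The array named 30030 genes, of which 26458, including all 7, had a probe bright enough to test. The earlier of the scanner files list the Tet genes under older symbols, and these probes were matched by probe name.

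The cells were GFP+ cells sorted from CD1 mice after in vivo electroporation at P1, which labels the progenitors lining a chosen wall of the subventricular zone (SVZ), a neurogenic layer beside the lateral ventricle. Dorsal-wall cells were compared with lateral-wall cells of the same time on each two-colour Agilent array, with dorsal RNA in Cy3 and lateral RNA in Cy5. The 17 arrays, labelled as biological replicates, were 2 for 8 hours after electroporation, 3 for 1 day, 2 for 2 days, 3 each for 4 and 7 days, and 4 for 14 days. The labels do not give the promoter driving GFP or the number of mice behind a sample. A later time may hold a different mixture of cells, and in such bulk samples fewer cells of a type and less RNA per cell cannot be told apart. Every array used the same dyes, so wall and dye cannot be told apart either.

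DNA methylation in mammals sits mainly on CpG dinucleotides and is passed on at each replication. UHRF1 binds the hemimethylated CpGs left behind the replication fork and brings in DNMT1, which methylates the new strand. DNMT3A and DNMT3B place methyl groups on unmethylated DNA, and the TET enzymes oxidize 5-methylcytosine, after which thymine DNA glycosylase (Tdg) and base excision repair can restore an unmodified cytosine. In the postnatal SVZ, Dnmt3a and Tet enzymes are known for roles in neurogenesis, and Uhrf1 is a gene of cycling cells.

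The results turn on the Uhrf1 probes, which are shown because they read neighbouring stretches of one transcript and could be set against each other. In mm9 coordinates, which the later scanner files carry, the brighter probe lies at chr17:56462554-56462613 and the second at chr17:56462657-56462716, both on the plus strand and 43 bases apart.
Uhrf1 brighter probe: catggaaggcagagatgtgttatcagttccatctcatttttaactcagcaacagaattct
Uhrf1 second probe: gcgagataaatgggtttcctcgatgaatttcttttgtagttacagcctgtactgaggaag
The Dnmt1 probe is shown as that of the partner enzyme. It is drawn from both sides of an intron, since its 60 bases span 369 bases at chr9:20711973-20712341 on the minus strand.
Dnmt1 probe: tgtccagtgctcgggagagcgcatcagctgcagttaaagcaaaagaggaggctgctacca
The brightest Tet3 probe, at chr6:83312763-83312822, and a dimmer one, at chr6:83352743-83352802, both on the minus strand, are shown because their values ran against each other. The earlier scanner files assign the dimmer one to a different transcript name from the other Tet3 probes.
Tet3 brightest probe: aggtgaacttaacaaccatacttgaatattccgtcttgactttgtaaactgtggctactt
Tet3 dimmer probe: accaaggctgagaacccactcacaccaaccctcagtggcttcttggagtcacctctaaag
Whether each stretch is coding or untranslated was not looked up, since no mm9 annotation was used here.

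Levels are log2 signals after background correction and normalization, and a wall difference is the dorsal level minus the lateral level on the same array. A gene was called where the adjusted p of limma, a linear model fitted over all tested genes with a mean for each time, was under 0.05 after Benjamini-Hochberg adjustment. Between 41.0% and 76.7% of dorsal spots and between 56.4% and 79.4% of lateral spots were well above background. The array of 1 day replicate 1 correlated with the others at a median r of 0.69 and that of 14 days replicate 2 at 0.77, against 0.85 to 0.92 for the remaining 15. Radial glia and stem cell markers (Nes, Vim, Sox2 and others) were well above background on every array in both walls for 8 of 8 genes, and neuroblast markers for 6 or 7 of 7. Markers of other cells were present too: 3 to 6 of 6 erythroid markers in dorsal cells and 2 to 6 in lateral cells, 6 or 7 of 7 microglial markers in dorsal cells and 5 to 7 in lateral cells. The summed erythroid level had a median of 17.23 (range 9.06 to 20.12) in dorsal cells and 12.63 (range 11.34 to 17.08) in lateral cells on the log2 scale. Its part in the results below was not tested.

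Uhrf1 was the single member that passed the test between the walls. It was lower in dorsal than in lateral cells on 15 of 17 arrays, by a mean over the 6 times of 1.76 log2 units, and at 1 day it was lower on all 3 arrays. At 8 hours the brighter probe read 11.71 and 12.33 in dorsal cells, against 13.96 and 13.65 in lateral cells. At 1 day it read 9.68, 10.74 and 12.52 in dorsal cells, against 15.35, 15.34 and 14.82 in lateral cells. At 2 days it read 13.20 and 12.998 in dorsal cells, against 14.76 and 14.86 in lateral cells. The walls did not overlap at any of these 3 times, and the lateral values lay close together while the dorsal values at 1 day were spread over almost 3 log2 units.

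From 4 days the dorsal and lateral values of Uhrf1 overlapped. At 4 days dorsal cells had 13.11, 9.63 and 12.53 and lateral cells 12.02, 13.54 and 12.93, so the groups overlapped and replicate 1 was higher in dorsal cells. At 7 days dorsal cells had 9.58, 11.72 and 11.25 and lateral cells 10.21, 12.13 and 10.91. At 14 days dorsal cells had 10.33, 7.96, 11.51 and 10.33 and lateral cells 12.29, 8.19, 12.24 and 13.70. Replicate 2 at 14 days was the lowest value of either wall, and its dorsal value was not well above background. All 4 arrays at 14 days had the dorsal value below the lateral one, yet the groups overlapped.

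**Figure D1:**
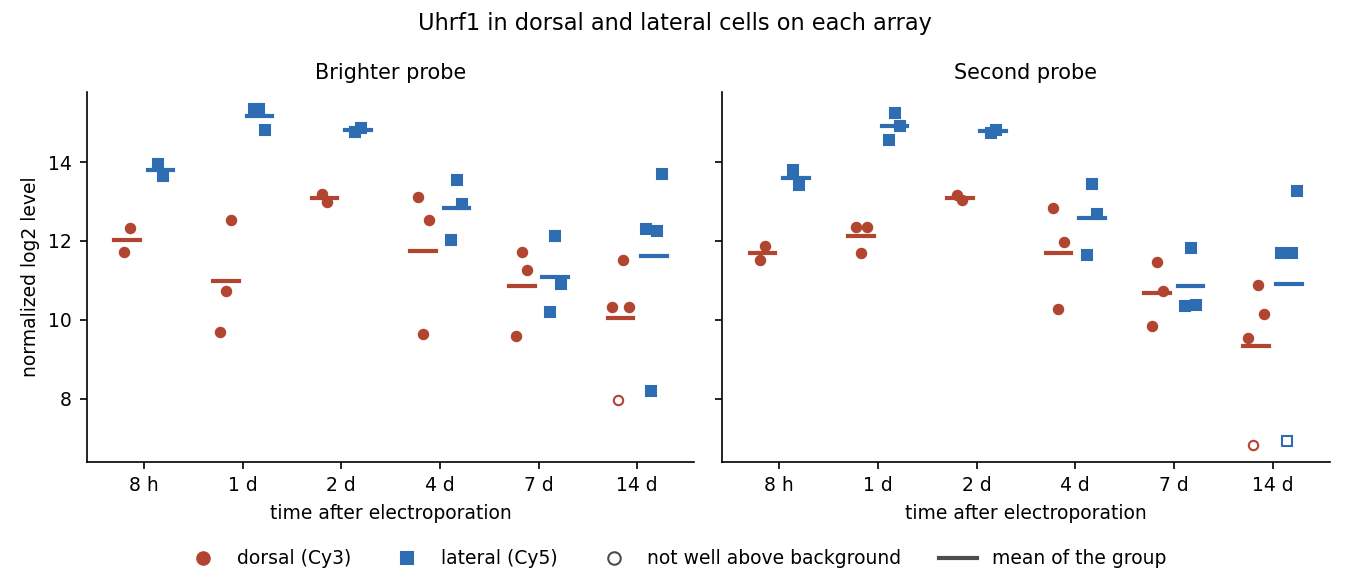
Normalized log2 level of Uhrf1 (vertical axis) by time after electroporation (horizontal axis) for the brighter probe (left) and the second probe (right). Each point is 1 array, circles are dorsal and squares lateral, bars are group means, and open symbols were not well above background. From 8 hours to 2 days all 7 lateral values of both probes lie above all dorsal values of their time.

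In the fit, the mean wall difference of Uhrf1 was -1.76 ± 0.36 (SE, n = 17 arrays, 95% interval -2.55 to -0.98, limma adjusted p = 0.0267), and 629 of 26414 genes (2.38%) were called. At 1 day it was -4.19 ± 0.84 (95% interval -6.01 to -2.37, n = 3, limma adjusted p = 0.0335), which is 18.3-fold lower, and 1.1% of genes were called. The 8 hours difference was -1.79 ± 1.03, that of 2 days -1.71 ± 1.03 and that of 4 days -1.08 ± 0.84. By 7 days the value was -0.23 ± 0.84, and for 14 days it was -1.57 ± 0.73. None of these 5 was called by limma. The share of all genes called was 0.378%, 0.181%, 0%, 0.0265% and 0.0227% at these times, with 1446 genes at an unadjusted p under 0.05 at 4 days. The 4 days value rested on replicate 2 (-3.92), against 1.09 and -0.40 on replicates 1 and 3, and ran from -2.16 to 0.34 over the alternative settings. On replicate 2 the median signal was 53.3 in the dorsal and 492 in the lateral channel. The dorsal channel had the lower median signal on every array. A change of the wall difference with time was not called either (limma F test, adjusted p = 0.697, with 0.0984% of all genes called), so the larger value at 1 day was not shown to differ from the rest. Leaving out the 2 arrays that correlated least with the rest, the mean difference was -1.71 (limma adjusted p = 0.0264), and the 1 day value, then resting on 2 arrays, was -3.45 (limma adjusted p = 0.0919). The 1 day value lost its call in 9 of the 17 fits that left out a single array, and the mean over times in 6 of them.

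The second Uhrf1 probe gave the same picture with a smaller 1 day difference. It read 12.34, 11.69 and 12.37 in dorsal cells at 1 day, against 14.57, 15.25 and 14.91 in lateral cells. Here the dorsal values were close together, so the low dorsal value of the brighter probe on replicate 1 was not seen by its neighbour. Tested by itself, the second probe differed by -1.50 ± 0.29 over the 6 times (limma adjusted p = 0.0263) and by -2.78 ± 0.68 at 1 day (limma adjusted p = 0.0819). In the fit of single probes, 2 of the 13 member probes were called in the mean wall difference, both of Uhrf1, against 1.72% of all probes, and at 1 day the brighter probe alone, against 0.783%. Across the 34 levels the probes correlated at r = 0.94, and across the 17 wall differences at r = 0.88, both within the same arrays.

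Wall differences of Uhrf1 were read within slides as well, since the labelled times were spread unevenly over the 5 slides. The mean difference was -0.91 on the slide of both 8 hours arrays, 4 days replicate 3 and 7 days replicate 3. It was -0.37 on the slide of the first replicates of 2, 4 and 7 days. On the slide of their second replicates it was -2.07, with 4 days replicate 2 at -3.92. The 3 arrays of 1 day (-4.19) and the 4 of 14 days (-1.57) each filled a slide of their own, so for these times the slide and the time cannot be told apart.

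Uhrf1 also had its highest levels early, in both walls, though no change over time was called with all 17 arrays. In lateral cells the group mean was 15.17 ± 0.31 at 1 day (SD, n = 3), 14.81 ± 0.07 at 2 days (n = 2), 13.81 ± 0.22 at 8 hours (n = 2) and 12.83 ± 0.77 at 4 days (n = 3). It was 11.61 ± 2.37 at 14 days (n = 4), with replicate 2 at 8.19, and lowest at 7 days, 11.08 ± 0.98 (n = 3). The 3 earliest times lay above every lateral value from 7 and 14 days except 13.70 on 14 days replicate 4, which exceeded the lower of the 8 hours values. In that order of levels, the values of 1 day and 2 days overlapped. Those of 4 days overlapped with 14 days and with 7 days, and those of 14 days and 7 days with each other. In dorsal cells the order was 2 days (13.10 ± 0.14), 8 hours (12.02 ± 0.44), 4 days (11.75 ± 1.87), 1 day (10.98 ± 1.44), 7 days (10.85 ± 1.13) and 14 days (10.03 ± 1.49), and both 2 days values lay above both of 8 hours while 1 value of 4 days, 13.11, reached them. The F test over time gave a limma adjusted p of 0.104 for lateral cells (4.69% of all genes called), 0.479 for dorsal cells (3.48%) and 0.138 for the mean of both walls. For the mean of both walls 7.53% of all genes were called by limma, and 0 of the 7 members. At an unadjusted p under 0.05 were 2 members (Dnmt3a and Uhrf1) and 5611 of all 26414 genes. Without 14 days replicate 2 the change of Uhrf1 over time was called (limma adjusted p = 0.0237), as it was without both that array and 1 day replicate 1 (limma adjusted p = 0.0181). The second of these fits also called more of all genes, as given below with Tet3, and the share in the first is not given here. For all members, changes to or from 8 hours, 1 day or 14 days were also, in whole or in part, changes of slide. Scan date and software version differed too between 8 hours and 1 day. At 14 days against 8 hours Uhrf1 changed by -1.99 ± 1.102 in dorsal cells and -2.20 ± 1.09 in lateral cells (limma adjusted p = 0.457 and 0.472), where 1.48% and 2.17% of all genes were called and no member was.

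The genes whose levels ran closest to Uhrf1 over the 34 dorsal and lateral values were Mcm3 (r = 0.89), a subunit of the replicative helicase, Cenpa (r = 0.86), the centromeric histone H3 variant, and Pclaf (r = 0.85), a partner of PCNA. They were picked for that likeness among 15167 genes, and the points share arrays and normalization. The list of 20 S phase genes and that of 14 mitosis genes followed a similar course in the plot of list medians beside Uhrf1. In the mean wall difference 20 of 20 S phase genes had negative values with a median of -0.83, and 14 of 14 mitosis genes with a median of -0.66, against 0.02 over all genes tested. The test called 2 S phase genes lower in dorsal cells and 0 higher: Mcm7, another helicase subunit, by -1.16 and Ccna2, the S phase cyclin A2, by -0.99. It called 1 mitosis gene, the kinase Aurkb, by -0.99, and 2.38% of all genes. Of 29 alternative settings, 26 kept the call of Mcm7, 26 that of Aurkb and 14 that of Ccna2. Here and below, such counts include settings that cannot change a wall difference, as that with no normalization between arrays.

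At 1 day 3 S phase genes were called lower in dorsal cells, Mcm3 by -3.72, Ccna2 by -2.91 and the ribonucleotide reductase subunit Rrm1 by -1.27, with a list median of -1.22. Of the mitosis genes, Aurkb was lower by -3.05 and the spindle protein Nusap1 by -2.82, with a list median of -1.87, against 0.02 over all genes, of which 1.1% were called. These 1 day calls were kept in 21 of 29 settings for Mcm3, 22 for Ccna2, 20 for Rrm1, 28 for Aurkb and 18 for Nusap1. Mki67, which encodes Ki-67, had a mean wall difference of -1.09 and Top2a, topoisomerase II alpha, one of -0.81, neither called (limma adjusted p = 0.122 and 0.189). Transit amplifying cell markers moved with them: 3 of 5 were called lower and 0 higher in dorsal cells over the 6 times (median -0.70), while 3 of 6 astrocyte markers (median 1.35) and 2 of 8 radial glia and stem cell markers (median 0.63) were called higher. The part of these cell mixtures in the Uhrf1 difference was not tested.

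**Figure D2:**
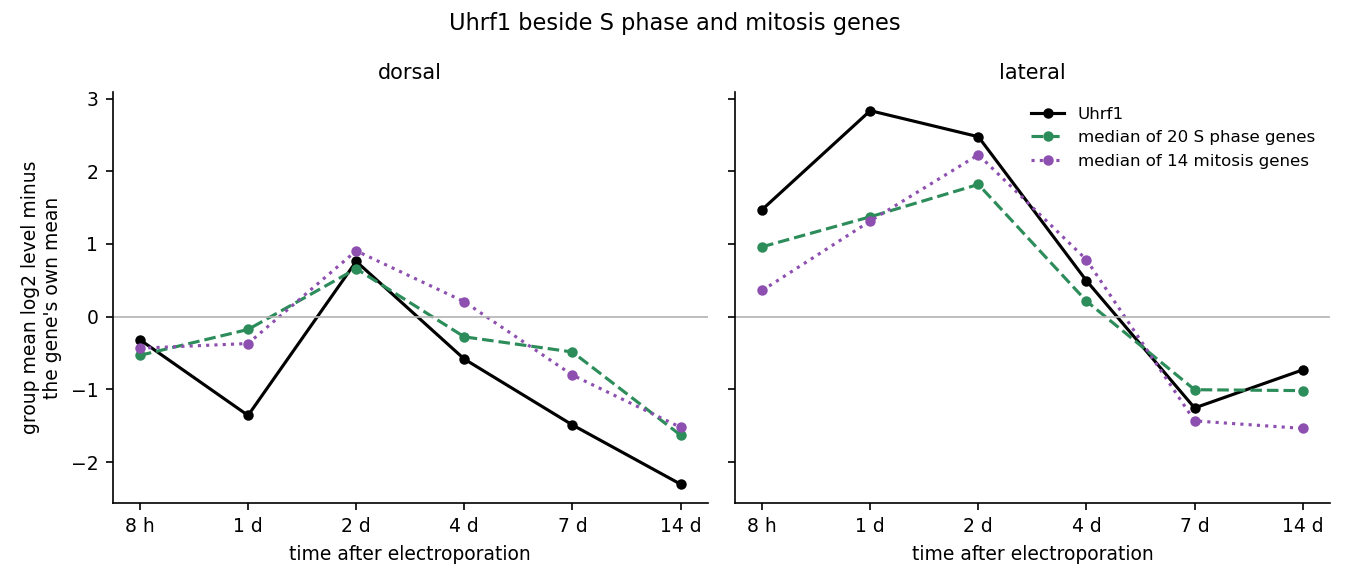
Group mean log2 level minus each gene's own mean over the 12 wall and time groups (vertical axis) by time after electroporation (horizontal axis), in dorsal (left) and lateral cells (right). The solid line is Uhrf1, the dashed line the median of 20 S phase genes and the dotted line the median of 14 mitosis genes. In lateral cells all 3 lines are above 0 up to 4 days and below 0 at 7 and 14 days, and in dorsal cells all 3 peak at 2 days.

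The annotated starts of Uhrf1 and of its nearest genes were searched for the sequence to which E2F factors, regulators of S phase genes, commonly bind. The letters searched were TTTCGCGC, TTTGGCGC, TTTCCCGC and TTTGCCGC on both strands, in RefSeq windows (GRCm38.p6) around each annotated start, mostly upstream of it. One of the 2 Uhrf1 windows, chr17:56304063-56304362 on the plus strand, held a match beginning at position -185 from the start, in capitals here.
Uhrf1 promoter: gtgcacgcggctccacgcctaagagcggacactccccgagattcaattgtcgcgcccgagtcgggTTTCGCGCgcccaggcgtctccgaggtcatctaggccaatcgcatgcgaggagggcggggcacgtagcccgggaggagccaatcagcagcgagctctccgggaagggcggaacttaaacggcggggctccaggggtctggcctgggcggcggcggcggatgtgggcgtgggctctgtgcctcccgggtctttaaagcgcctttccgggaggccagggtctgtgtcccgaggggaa
Of the 3 nearest genes, Mcm3 and Pclaf held a match and Cenpa did not, and 6 of the 15 S phase genes with a window did. Among all 32851 windows 2.3% held one, and among all 27025 genes 2.6%. Of the other members Dnmt1 alone held a match, in 1 of its 3 windows. A match is a description of these letters and not evidence of binding.

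Dnmt1, the maintenance methyltransferase itself, was bright in both walls and was not called between them. Its levels ran from 9.03 to 15.33 (median 13.83) in dorsal cells and from 9.19 to 14.93 (median 14.02) in lateral cells, over 16 arrays each, since the spot of 14 days replicate 1 was rejected by the scanner software. At 1 day it read 13.87, 13.83 and 13.58 in dorsal cells, against 9.19, 14.35 and 14.16 in lateral cells. At 4 days it read 14.76, 11.06 and 14.02 in dorsal cells, against 14.05, 14.30 and 13.99 in lateral cells. At 14 days it read 15.33, 11.89 and 9.03 in dorsal cells, against 13.61, 13.40 and 13.86 in lateral cells. The low values were those of single channels, and the walls overlapped at every time except 2 days, when dorsal cells were lower on both arrays. The lateral 9.19 was on 1 day replicate 1, the array that correlated least with the rest. Replicates 2 and 3 of 1 day differed by -0.52 and -0.57. Dorsal cells were lower on 5 of 7 arrays up to 2 days and on 9 of 16 over all times. Up to 2 days the brightest probes of Dnmt3b and Tet2 were lower in dorsal cells on 7 of 7 arrays. That of Tet3 was lower on 6 of 7, that of Dnmt3a on 4 and that of Tet1 on 2.

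The mean wall difference of Dnmt1 was -0.39 ± 0.53 (95% interval -1.56 to 0.77, limma adjusted p = 0.771). Between 14 days and 8 hours it changed by -1.26 ± 1.40 in dorsal cells and by -0.29 ± 1.15 in lateral cells, neither called. Its correlation with Uhrf1 over the levels, with the low single-channel values included, was r = 0.08. The closest genes were Syf2, Higd1a and Ssr2 (r = 0.75 each), with n = 30 to 32 levels. Uhrf1 ran closest among the members to Dnmt3b (r = 0.42).

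The other genes of maintenance methylation gave no call between the walls. Of 7 tested partners limma called 0 in the mean wall difference, with 2 at an unadjusted p under 0.05, against 4316 of all 26414 genes. Values were negative for 6 of 7, and their median was -0.37. Pcna, the replication clamp that also holds DNMT1 at the fork, differed by -0.77 ± 0.26 (limma adjusted p = 0.153). Cdca7, which recruits the remodeller HELLS, differed by -1.09 ± 0.30 (limma adjusted p = 0.0775). Hells itself differed by -0.37 ± 0.51 and Uhrf2, the paralog of Uhrf1, by -0.24 ± 0.20, neither called. Over time 1 of the 7, the DNA ligase Lig1, was called in the mean of both walls (limma F test, adjusted p = 0.0165), against 7.53% of all genes. Hells missed the threshold (limma F test, adjusted p = 0.0523).

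**Figure D3:**
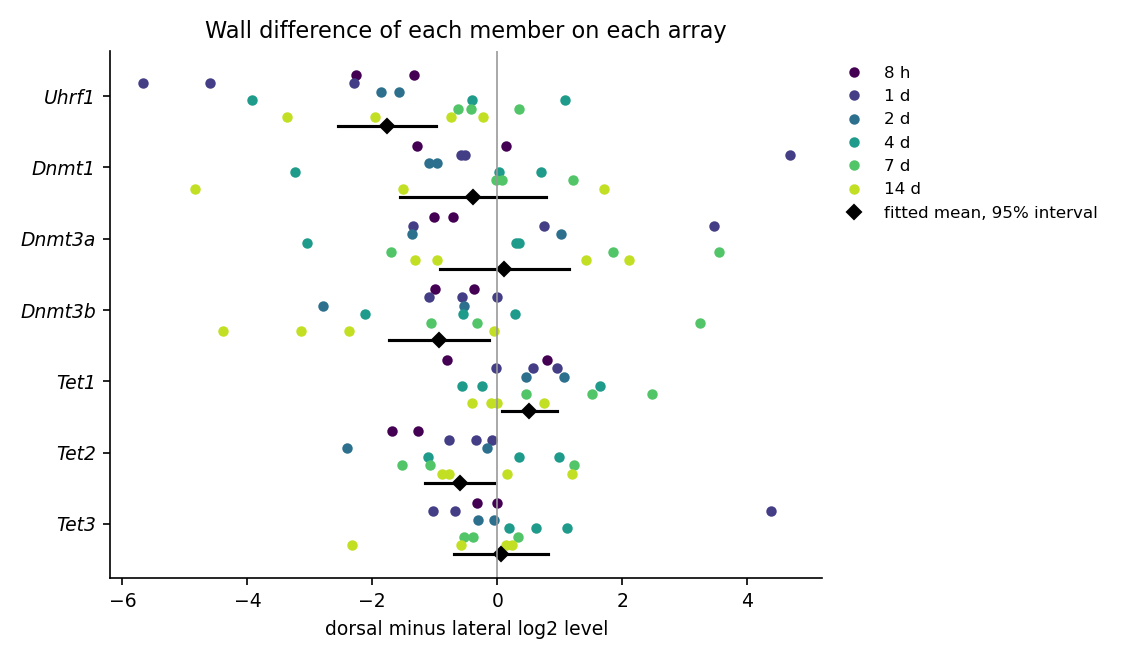
Dorsal minus lateral log2 level (horizontal axis) of the brightest probe of each member (rows), with 1 coloured point for each array by time. Black diamonds and lines are the fitted means over the 6 times with 95% intervals. Every member has points on both sides of 0. The intervals of Uhrf1 (-2.55 to -0.98), Dnmt3b (-1.73 to -0.13), Tet2 (-1.15 to -0.05) and Tet1 (0.08 to 0.95) leave out 0, and of these Uhrf1 alone was called after adjustment.

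Dnmt3a, a de novo methyltransferase, varied over time without a call. At 8 hours it read 10.698 and 10.86 in dorsal cells, against 11.71 and 11.57 in lateral cells. At 1 day it read 9.80, 8.39 and 11.07 in dorsal cells, against 9.05, 9.74 and 7.60 in lateral cells. At 7 days it read 11.44, 11.91 and 11.62 in dorsal cells, against 13.13, 10.06 and 8.07 in lateral cells. At 14 days it read 8.00, 10.87, 8.34 and 9.84 in dorsal cells, against 9.31, 8.77, 9.31 and 8.42 in lateral cells. The lateral values of 1 day and 14 days all lay below both of 8 hours, and the dorsal values overlapped between those times.

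For the mean of both walls, Dnmt3a changed by -2.10 ± 0.66 at 14 days against 8 hours (95% interval -3.54 to -0.67, limma adjusted p = 0.128), where 3.1% of all genes were called and the median over all genes was 0.18. The step between 8 hours and 1 day was -1.94 ± 0.70 (limma adjusted p = 0.191, with 1.42% of all genes called) and that between 7 and 14 days -1.93 ± 0.58 (limma adjusted p = 0.196, with 0.651% called). Each of these comparisons was also one between slides. The F test over time gave a limma adjusted p of 0.0903, the lowest of the 7 members. No member was called in the steps between 1 and 2 days, 2 and 4 days, or 4 and 7 days either, where 0.00378%, 0.631% and 0.068% of all genes were. The mean wall difference of Dnmt3a was 0.11 ± 0.48 (95% interval -0.92 to 1.14), with dorsal cells lower on 8 of 17 arrays. The 3 Dnmt3a probes did not run together (r = -0.12 to 0.23 over 34 levels): at 14 days against 8 hours the others changed by -0.65 ± 0.54 and 0.41 ± 0.75, and between 8 hours and 1 day by -0.35 ± 0.57 and -1.97 ± 0.79. The genes closest to the brightest one were Pomc, Surf6 and Zfp526 (r = 0.58 to 0.61).

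Dnmt3b, the second de novo enzyme, was dim, with 11 of 17 dorsal and 14 of 17 lateral values well above background. It was lower in dorsal cells on 15 of 17 arrays, yet its mean wall difference of -0.93 ± 0.37 (95% interval -1.73 to -0.13) was not called (limma adjusted p = 0.231). At 14 days it read 7.07, 6.18, 7.02 and 7.58 in dorsal cells, against 11.47, 6.24, 9.39 and 10.72 in lateral cells. Dorsal cells were lower on 4 of 4 arrays, and 1 of their 4 values was well above background, against 3 of 4 in lateral cells. Replicate 2 read close to background in both walls, so the groups overlapped. The difference was -2.49 ± 0.74 (limma adjusted p = 0.249), at a time when 0.0227% of all genes were called. No change over time was called in the mean of both walls (limma F test, adjusted p = 0.994). Its levels ran closest to Shmt1 (r = 0.80), Cep85 (r = 0.74) and Ankdd1b (r = 0.71).

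Of the 8 partners of de novo methylation limma called 0 in the mean wall difference, with 2 at an unadjusted p under 0.05, against 4316 of all 26414 genes. Over time in the mean of both walls it called 2, against 7.53% of all genes. Zfp57, a zinc finger protein that keeps imprints methylated, rose by 2.32 ± 0.42 at 14 days against 8 hours in the mean of both walls (limma adjusted p = 0.00818), with the largest step of 2.17 ± 0.42 between 2 and 4 days (limma adjusted p = 0.0395). Ehmt2, the histone methyltransferase G9a, rose by 1.48 ± 0.31 between 8 hours and 1 day (limma adjusted p = 0.0348). The Ehmt2 step was also one of slide, scan date and software version, and the 14 days comparison of Zfp57 one between slides. The 14 days call of Zfp57 was kept in 25 of 28 alternative settings, but its step and that of Ehmt2 each lost the call in 13 of 28.

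**Figure D4:**
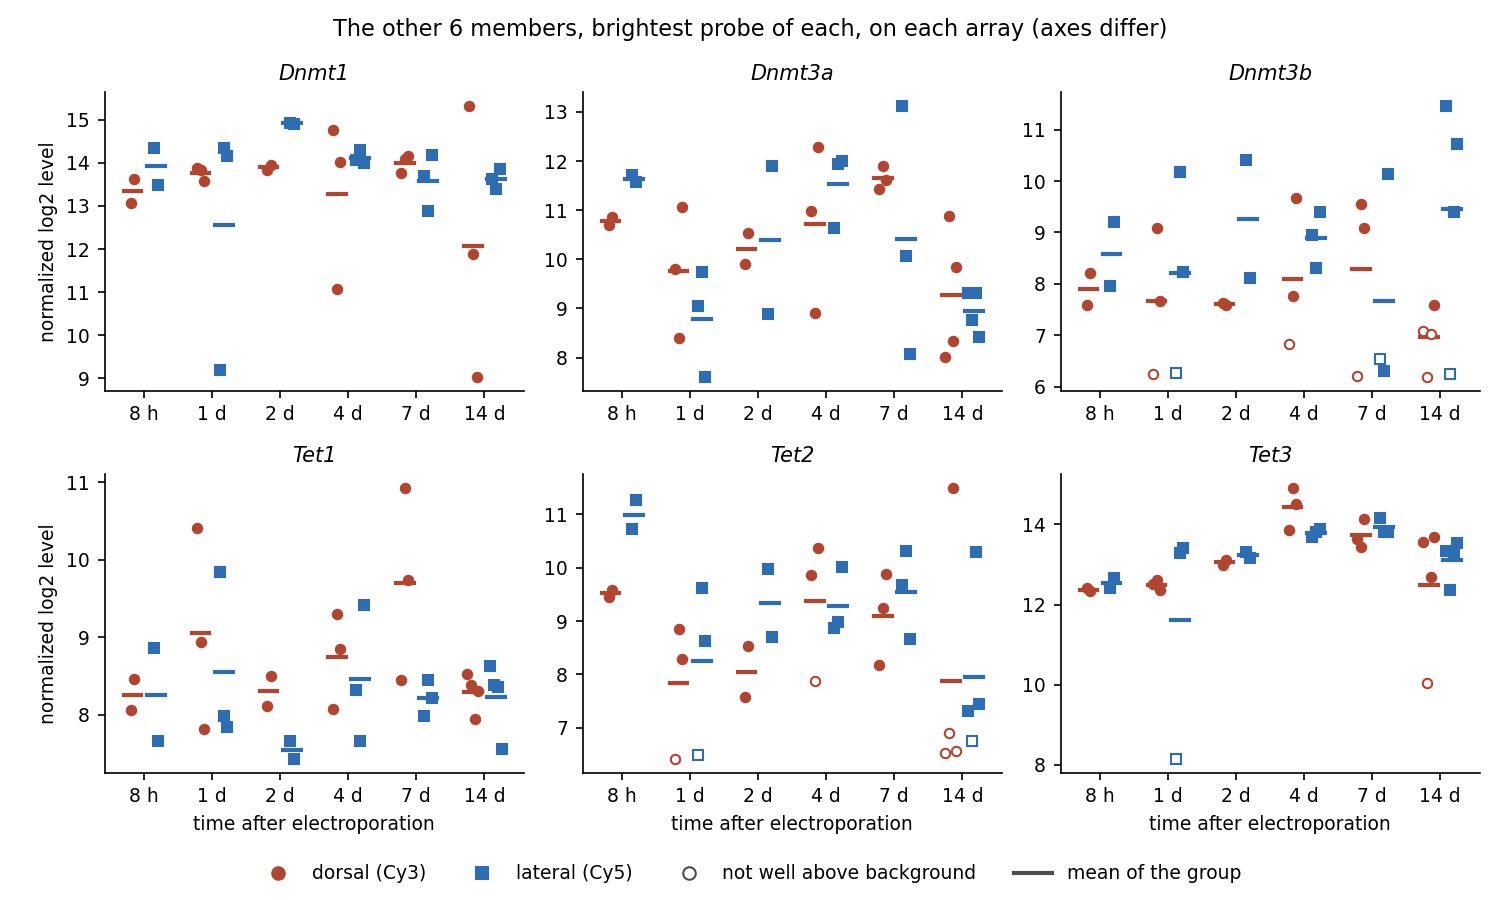
Normalized log2 level (vertical axes, which differ) by time after electroporation (horizontal axis) for the brightest probe of the other 6 members. Circles are dorsal and squares lateral values of 1 array each, bars are group means, and open symbols were not well above background. The walls overlap at most times for each gene, and single low points stand apart for Dnmt1 and Tet3.

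Of the oxidizing enzymes, none was called in any comparison with its brightest probe. Tet1 had low but measurable levels on all 17 arrays, from 7.81 to 10.93 (median 8.45) in dorsal cells and from 7.42 to 9.84 (median 8.21) in lateral cells. At 7 days it read 8.45, 10.93 and 9.73 in dorsal cells, against 7.98, 8.45 and 8.21 in lateral cells, higher in dorsal cells on 3 of 3 arrays. That difference was 1.49 ± 0.46 (95% interval 0.48 to 2.49) and was not called (limma adjusted p = 0.672, with 0.0265% of all genes called). Over the 6 times the mean difference was 0.52 ± 0.20 (limma adjusted p = 0.219), and genes close to it were Defb11 (r = 0.77) and Atp8b3 (r = 0.69).

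Tet2 had its highest lateral levels at 8 hours. At that time it read 9.45 and 9.58 in dorsal cells, against 10.72 and 11.27 in lateral cells. At 1 day it read 6.41, 8.84 and 8.28 in dorsal cells, against 6.49, 9.62 and 8.62 in lateral cells. At 14 days it read 6.54, 6.90, 11.50 and 6.57 in dorsal cells, against 7.31, 6.74, 10.29 and 7.45 in lateral cells. Replicate 3 stood well above the rest in both walls at 14 days, and the other 3 dorsal values were not well above background. All 4 lateral values at 14 days lay below both of 8 hours, whereas the dorsal groups overlapped through replicate 3.

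At 14 days against 8 hours Tet2 changed by -1.64 ± 1.24 in dorsal cells and by -3.04 ± 0.98 in lateral cells (limma adjusted p = 0.57 and 0.166). The difference between the walls in this change was 1.40 ± 0.88 and was not called (limma adjusted p = 0.832, with 0.174% of all genes called). Without 14 days replicate 3 the lateral change was -3.83 and was called (limma adjusted p = 0.0302). The share of all genes called in that fit is not given here, and the comparison was also one between slides. The mean wall difference was -0.60 ± 0.25, with dorsal cells lower on 12 of 17 arrays (limma adjusted p = 0.258). A second, dimmer Tet2 probe fell by 1.603 ± 0.35 between 8 hours and 1 day in the fit of single probes (limma adjusted p = 0.0402), where 1.38% of all probes were called. The step was also one of slide, scan date and software version. That probe was well above background in 13 of 34 values, and its levels correlated with those of the brighter probe at r = 0.15. The brighter probe changed by -2.21 ± 1.08 over the same step, which was not called. Its closest genes were Fam72a, Ctu2 and Lyrm1 (r = 0.77 to 0.80).

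Tet3 was bright and rather even between the walls. Up to 2 days its values lay between 12.34 and 13.40, but for 8.14 in lateral cells of 1 day replicate 1, which was not well above background. At 4 days it read 13.86, 14.91 and 14.50 in dorsal cells, against 13.67, 13.80 and 13.89 in lateral cells. At 7 days it read 13.63, 13.43 and 14.14 in dorsal cells, against 14.15, 13.82 and 13.80 in lateral cells. At 14 days it read 13.57, 10.04, 12.67 and 13.67 in dorsal cells, against 13.33, 12.36, 13.26 and 13.53 in lateral cells. In both walls every value of 4 and 7 days lay above every value of 8 hours, 1 day and 2 days, narrowly so against 13.40 in lateral cells at 1 day, and at 14 days the dorsal values reached the range of 4 and 7 days while all 4 lateral values lay below it.

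The F test over time for Tet3 gave a limma adjusted p of 0.278 in the mean of both walls, and without the 2 arrays that correlated least with the rest it gave 0.00664. That fit called 2 of the 7 members, Tet3 and Uhrf1, in place of 0, and 3402 of 26393 genes in place of 1990 of 26414. The mean wall difference was 0.06 ± 0.35 (95% interval -0.69 to 0.81). The dimmer probe shown above ran against the brightest one (r = -0.56 over 34 levels and -0.65 over the wall differences). At 1 day it read 11.19, 11.12 and 8.45 in dorsal cells, against 13.20, 9.33 and 8.69 in lateral cells, so it was highest in the channel where the brightest probe was lowest. The genes closest to the brightest Tet3 probe were Ubp1, Crmp1 and St7 (r = 0.88 to 0.90), of which Crmp1 encodes a neuronal protein of the collapsin response mediator family.

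Among 17 genes of demethylation and repair, 1 was called in the mean wall difference and 1 over time in the mean of both walls, against 2.38% and 7.53% of all genes. Tdg, the glycosylase that removes the oxidized bases TET enzymes make, was lower in dorsal cells by a small amount, -0.40 ± 0.08 over the 6 times (limma adjusted p = 0.0305), a call kept under 18 of 29 alternative settings. Gadd45b, a stress-induced gene linked to active demethylation in neurons, fell by 5.12 ± 0.87 between 8 hours and 1 day in the mean of both walls (limma adjusted p = 0.0114) and differed by -4.59 ± 0.83 at 14 days against 8 hours (limma adjusted p = 0.00724), each called in 26 of 28 settings. Both comparisons were also between slides, and the 8 hours to 1 day step also between scan dates and software versions. Microglial markers had lower values at 1 day too, with 7 of 7 negative in that step and a median of -4.22 on the log2 scale. None of the 7 was called in that step, with 5 at an unadjusted p under 0.05, against 4757 of all 26458 genes. In the F test over time 5 were called. Their part in the Gadd45b change was not tested. Gadd45g, its relative with roles in neural differentiation, had a mean wall difference of -0.83 ± 0.30, and the glycosylase Mbd4 one of -0.80 ± 0.58, neither called (limma adjusted p = 0.182 and 0.534).

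The 9 readers of methylated DNA and the 11 genes of the methyl donor cycle gave 0 calls by limma in the mean wall difference, where 1 gene of each list had an unadjusted p under 0.05, and 0 over time in the mean of both walls, where 0 of each had. Of all 26414 genes 4316 had such a p in the first test and 5611 in the second, with 2.38% and 7.53% called.

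Genes commonly silenced or marked by DNA methylation were read as a last group. Of 8 germline genes, 1 was called higher in dorsal cells over the 6 times, Slc25a31 by 0.94 ± 0.21 (limma adjusted p = 0.0395), and 1 at 1 day, Ddx4 by 2.79 ± 0.56 (limma adjusted p = 0.0331). In these tests 2.38% and 1.1% of all genes were called, in either direction. The call of Slc25a31 was lost in 15 of 29 alternative settings and that of Ddx4 in 10 of 28. The list median of the mean wall difference was 0.14. Of 13 imprinted genes limma called 0 in the mean wall difference, with 7 at an unadjusted p under 0.05, against 4316 of all 26414 genes. Between 14 days and 8 hours in the mean of both walls it called 3, against 3.1% of all genes. That comparison was also one between slides. H19, a maternally expressed noncoding RNA, fell by 5.06 ± 0.84 (limma adjusted p = 0.00408) and Plagl1, a growth regulator, fell by 4.45 ± 1.04 (limma adjusted p = 0.0337). Meg3, a maternally expressed noncoding RNA, rose by 2.19 ± 0.44 (limma adjusted p = 0.0149). Of 28 settings, 26 kept the call of H19, 25 that of Meg3 and 19 that of Plagl1. Neuroblast markers differed over the same interval, with 3 of 7 called higher at 14 days and a median of 3.17, and their part in these changes was not tested. The imprinted genes called moved in both directions, and methylation itself was not measured here.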

How the data were processed

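RNA of GFP+ cells from 2 walls was hybridised on 17 two-colour arrays. The labels' extract protocol says that mRNA was amplified by a global PCR, which can distort levels of scarce transcripts. The deposited scanner files hold spot intensity in both channels, made with Agilent Feature Extraction 10.5.1.1 (9 arrays) or 10.7.3.1 (8 arrays), per the file headers, and their log10 ratios were not used for the tests. The deposited value table holds log2 ratios, dorsal over lateral as its values show against the scanner files, with a normalization not given in the sources used here. It served as an alternative.

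Intensities were background corrected (normexp, offset 50), loess normalized per array (control spots weighted 0) and scaled between arrays (Aquantile) in limma 3.58.1 (R 4.3.3). Spots flagged as outliers were dropped, spots of a probe averaged, and the brightest probe stood for its gene. A probe was kept if 2 or more arrays had it well above background, in whichever channel. One fit of all 17 arrays had a mean for each time, on the dorsal minus lateral ratio, the mean of both channels, or 1 channel, with Benjamini-Hochberg adjustment over all genes at 0.05. For each member the 3 genes with the highest Pearson r over its levels were named, and of each gene list those called, up to 3 in each direction, with some named always; some genes so chosen are not reported here. The members and lists were chosen with earlier results of these data known. The code was tested on simulated data. The number of arrays limits the precision. Figures were drawn with matplotlib 3.10.9. Alternatives covered background correction, normalization, dim-probe filters, probe choice, left-out arrays, array weights, the replicate number and the slide as blocks, and the deposited table. Scaling between arrays acts on the mean of both channels, so leaving it out cannot change a wall difference.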

Additional observations from a re-analysis of the deposited data

Results flagged for a closer look

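Tet2 in dorsal cells at 14 days had 1 value far from the other 3: replicate 3 read 11.50 on the log2 scale, and the nearest of the others 6.90. The gap was 0.926 of the group's range, above Dixon's critical value for 4 samples. The other 3 values were not well above background. Of 18 groups examined in this way 1 was marked, and chance marks about 1 in 20.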

How the results depend on the processing

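The counts of members called were recomputed under every alternative. In the mean wall difference 1 member was called, and 3 with median centring in place of loess (Dnmt3b, Tet2 and Uhrf1), a setting that called 6143 of 26414 genes in place of 629, 0 with the replicate number as a block and 0 to 1 when single arrays were left out. At single times 1 was called. It was 0 with the scanner's processed signals, without both arrays that stand apart, with array weights, with the replicate block and in the deposited table, 2 with the slide as a random block (Dnmt3b at 14 days and Uhrf1 at 1 day), and 0 to 1 when single arrays were left out. Over time in the mean of both walls 0 were called. It was 1 with no normalization between arrays, 2 without both arrays that stand apart, 5 with array weights, 4 with the slide block, and 0 to 1 when single arrays were left out. Between neighbouring times there were 0 calls over the 5 steps, 5 with array weights (4 members, Dnmt3a in 2 steps) and 3 with the slide block (2 members, Dnmt3a in 2 steps). In the step between 8 hours and 1 day these settings called 14567 and 6751 genes in place of 377. Between 14 days and 8 hours in lateral cells 0 were called, 1 with the mean over a gene's probes, 1 without both arrays that stand apart, 1 with array weights, 1 with the slide block, and 0 to 1 when single arrays were left out. Under array weights the step between 8 hours and 1 day turned its sign and was called for Dnmt3b (1.36) and Tet3 (0.48). The cause of these changes was not tested. Over all genes, array weights called 16924 and the slide block 12601 in the F test over time, against 1990. The slide block used an estimated correlation within slides of -0.17 for the wall difference and -0.24 for the mean of both walls. A negative correlation lowers the standard error of a time that fills a slide, as 1 day and 14 days did. The share of all genes that the slide block called at single times is not given here.

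Among pairs of samples with the same replicate number, 0 of 36 exceeded r = 0.1 for the wall difference and 5 of 36 for the mean level. Among pairs with different numbers these were 0 of 83 and 9 of 83. The first replicates of 2, 4 and 7 days shared a slide, as did their second replicates. This check cannot settle whether the numbers pair samples, since a weak correlation does not exclude it. With the replicate block the mean wall difference of Uhrf1 was -1.83 (limma adjusted p = 0.308) and the 1 day difference -4.50 (limma adjusted p = 0.0926), and over all genes the mean wall difference gave 6 calls in place of 629. Over the alternatives the mean wall difference of Uhrf1 ran between -2.49 and -1.57 and was called in 11 of 12. Among these, no normalization between arrays and both dim-probe filters left the value at -1.76. They cannot change it, so their calls add no support. Without single arrays it ran between -1.94 and -1.53 and the 1 day difference between -5.14 and -3.45. Leaving out an array of 8 hours, 2 days, or replicate 1 or 2 of 7 days ended the first call. The 1 day call ended without 1 day replicate 1 (-3.45, limma adjusted p = 0.0982) or 1 day replicate 2 (-3.98, limma adjusted p = 0.122), and also without an array of 8 hours, 2 days or 7 days, with the value at -4.19 and adjusted p between 0.0503 and 0.0559.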
